A study of Mus musculus with 18 samples.

Results

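The genes described here are 10 core components of the Notch pathway, taken by name from the array's annotation: the receptors Notch1, Notch2, Notch3 and Notch4, the ligands Jag1, Jag2 and Dll1, and the target genes Hes1, Hey1 and Heyl. All 10 were measured, by 18 of the 22690 probe sets on the array and as 10 of the 12394 genes that the array represents. They were compared between immortalised mouse embryonic fibroblasts (MEFs) that carried 1 working copy of Tdg (Tdg+/-) and MEFs that carried none (Tdg-/-). The product of Tdg, thymine DNA glycosylase, excises mispaired thymine and oxidised forms of methylcytosine from DNA. Both groups were immortalised with SV40 and grown in serum-containing medium, and each held 3 samples on Affymetrix arrays. The Tdg+/- samples came from clone 4 and the Tdg-/- samples from clone 9, so genotype and clone cannot be told apart. The labels do not say whether replicates were separate cultures, and the p-values therefore cover only the spread between these arrays, which may be technical. The embryonic stem cells and neuronal precursors of the study were hybridised to another platform and are not used here.

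Notch receptors are membrane proteins that are activated by Jagged and Delta ligands on neighbouring cells. Ligand binding exposes the receptor to cleavage by the protease Adam10 and then by the gamma-secretase complex, and the freed intracellular part joins the DNA-binding protein Rbpj and a Mastermind co-activator in the nucleus. The best-known targets are the Hes and Hey genes, which encode basic helix-loop-helix repressors, and in mesenchymal cells the pathway is known for holding back differentiation.

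The values are log2 expression as the authors deposited them. In the Tdg-/- MEFs the 3 probe sets for Tdg were lower by 3.46-fold, 4.79-fold and 6.30-fold, with adjusted p-values from 0.000726 to 0.00543; each is also annotated to Tdg pseudogenes. The array of Tdg+/- replicate 1 stood apart: its correlation with the other arrays of its group was 0.953 and 0.962, against 0.997 between those, and its values had the narrowest spread, with an SD of 1.70 against 1.81 to 1.90 on the other arrays. Results that rest on it are given with and without it. As a rough guide to unspecific signal, 33 probe sets of olfactory receptor genes, which serve the nose, had a median of 6.29 and a 90th percentile of 7.03 (log2). Probe sets differ in affinity, so this reference says nothing exact about one gene. Of the 10 Notch genes, 6 lay above that percentile in both genotypes (Notch1, Notch2, Jag2, Dll1, Hes1 and Hey1). Jag1 and Heyl had group means above it in Tdg+/- MEFs alone. Notch3 was not above it in either genotype, with means of 7.03 (Tdg+/-) and 6.77 (Tdg-/-). Notch4 was under the olfactory median in both, so expression of Notch4 was not established.

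None of the 10 Notch genes passed the test between the genotypes (limma, Benjamini-Hochberg adjusted p under 0.05), against 3.83% of all genes (2.52% higher and 1.32% lower in Tdg-/- MEFs). The smallest adjusted p was 0.133, for Notch3. At an unadjusted p under 0.05 the count was 3 of 10, with 22.4% of all genes past that limit. The differences (Tdg-/- minus Tdg+/-) were small, from -0.27 to 0.52 on the log2 scale, or 1.08-fold to 1.43-fold in size. In a fit over all probe sets, where 3.02% were called, none of the 18 passed either, and the smallest adjusted p was 0.152. The gene differences were below 0 for 8 genes and above 0 for Notch2 and Hey1, with a median of -0.16 against -0.02 over all genes, of which 52.1% were below 0. Among all genes with mean levels of 6.55 to 7.70, where 5 of the 10 Notch genes lay, the median was -0.13. With Tdg+/- replicate 1 left out the median was -0.08 for the Notch genes, -0.03 over all genes and -0.07 in that range of levels. In bulk samples such as these, fewer cells that express a gene and less RNA per cell cannot be told apart.

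Without Tdg+/- replicate 1 the test passed for 4 of the 10 genes, Notch2 and Hey1 higher and Notch3 and Notch4 lower in Tdg-/- MEFs. The share of all genes called then was 22%, with 14.1% higher and 7.87% lower, so many more genes passed on these 5 arrays in the pathway and outside it. In the fit over all probe sets on these arrays the probe set of Hey1 and both of Notch3 passed, and those of Notch2 and Notch4 did not. With any other array left out, none of the 10 passed.

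**Figure D1:**
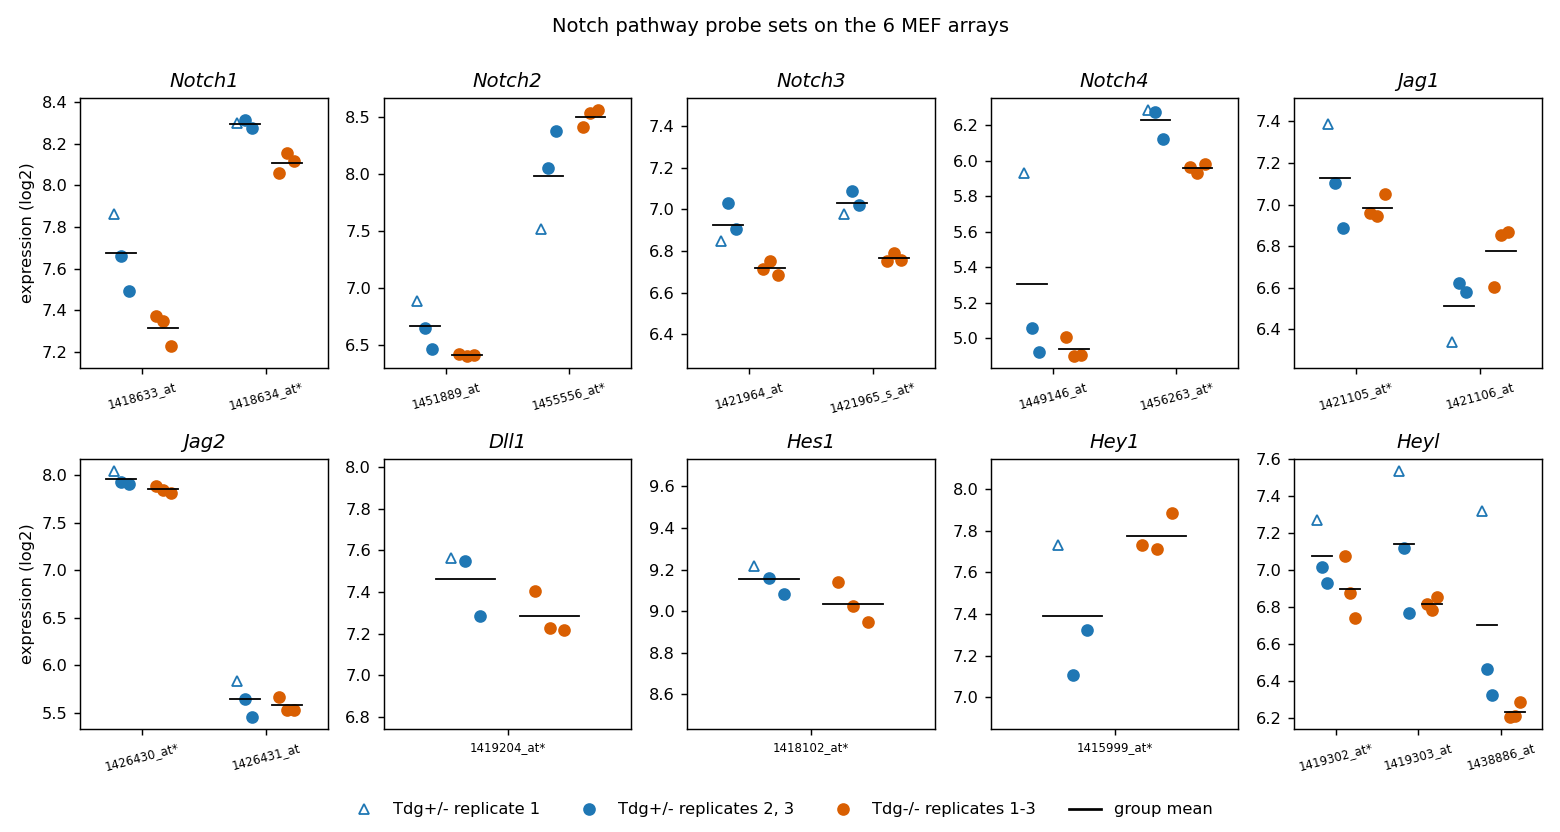
Expression (log2, y axis) of the 18 Notch pathway probe sets on each of the 6 MEF arrays, 1 panel per gene. Blue symbols are Tdg+/- arrays, with replicate 1 as an open triangle, orange circles are Tdg-/- arrays, bars are group means, and an asterisk marks the probe set that stands for the gene; each panel has its own range. The Tdg-/- arrays lie close together, while Tdg+/- replicate 1 lies above both other Tdg+/- arrays for 13 probe sets and below both for 4.

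Notch1, the founding receptor of the family, was measured by a pair of probe sets. The brighter probe set read 8.30, 8.32 and 8.28 (log2) in Tdg+/- MEFs and 8.06, 8.15 and 8.12 in Tdg-/- MEFs. The other probe set read 7.86, 7.66 and 7.49 in Tdg+/- and 7.37, 7.35 and 7.23 in Tdg-/- MEFs. In both probe sets every Tdg-/- reading was under every Tdg+/- reading, and in the brighter one Tdg+/- replicate 1 lay between the others of its group. The difference for the brighter probe set was -0.19 ± 0.08 (log2, SE), with a 95% interval from -0.38 to 0.003 and an adjusted p of 0.227. It was -0.19 ± 0.08 (adjusted p = 0.0972) without Tdg+/- replicate 1.

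Notch2, a receptor widely expressed in mesenchyme, gave opposite results with its 2 probe sets. The brighter probe set read 7.52, 8.06 and 8.38 (log2) in Tdg+/- and 8.41, 8.53 and 8.56 in Tdg-/- MEFs. All Tdg-/- arrays were higher, but the Tdg+/- arrays spread over a far wider range than the Tdg-/- arrays, with an SD of 0.43 against 0.08. The other probe set read 6.89, 6.65 and 6.46 in Tdg+/- and 6.43, 6.41 and 6.41 in Tdg-/- MEFs. Here all Tdg-/- arrays were lower. The brighter probe set differed by 0.52 ± 0.21 (log2, SE; 95% interval 0.02 to 1.02; adjusted p = 0.213), the largest difference among the 10 genes. The difference shrank to 0.28 ± 0.10 when Tdg+/- replicate 1 was left out, and then passed with an adjusted p of 0.0481. In a fit over all 22690 probe sets without that array the adjusted p was 0.0763. The other probe set then differed by -0.14, also not past the test, so no direction was established for Notch2.

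Notch3, a receptor known from pericytes and vascular smooth muscle, had the smallest adjusted p of the 10 genes. Its representative probe set read 6.98, 7.09 and 7.02 (log2) in Tdg+/- and 6.75, 6.79 and 6.76 in Tdg-/- MEFs. The other one read 6.85, 7.03 and 6.91 in Tdg+/- and 6.71, 6.75 and 6.69 in Tdg-/- MEFs. The groups did not overlap in either probe set. Of the olfactory receptor probe sets, 87.9% and 75.8% were below the representative one in Tdg+/- and Tdg-/- MEFs, so its signal may be partly unspecific. The difference was -0.26 ± 0.08 (log2, SE), with a 95% interval from -0.46 to -0.07, which is 1.20-fold lower. Without Tdg+/- replicate 1 it was -0.29 ± 0.08 (adjusted p = 0.0129), and in the fit over all probe sets each of its probe sets passed (adjusted p = 0.0191 and 0.0441), as did 17.9% of all. With any other array left out the difference stayed between -0.28 and -0.23, with adjusted p-values from 0.110 to 0.429. The genes with the most similar profile over the 6 arrays, after each gene was centred on its mean, were P3h3, Ctsq and Add3, at root mean square distances of 0.0267, 0.0281 and 0.0283 (log2). None of these passed the limma test (adjusted p from 0.108 to 0.134). Ctsq had means of 6.26 and 5.98, under the olfactory median of 6.29. Their similarity is a description of small shifts on 6 arrays and was not tested.

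Notch4, a receptor best known from endothelium, read 6.29, 6.28 and 6.12 (log2) in Tdg+/- and 5.97, 5.93 and 5.98 in Tdg-/- MEFs with its brighter probe set. The groups did not overlap, and the difference was -0.27 ± 0.09 (SE; adjusted p = 0.147). It was -0.24 ± 0.08 and passed (adjusted p = 0.0428) with Tdg+/- replicate 1 left out. In the fit over all probe sets on those 5 arrays its adjusted p was 0.0559, not past the test. The other probe set read 5.93, 5.06 and 4.92 in Tdg+/- and 5.01, 4.90 and 4.91 in Tdg-/- MEFs, so that only Tdg+/- replicate 1 was apart. Its difference went from -0.37 to -0.05 when that array was left out. Both probe sets were at the level of olfactory receptor probe sets or under it, with 45.5% and 30.3% of those below the brighter one in Tdg+/- and Tdg-/- MEFs.

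The promoter sequences of Notch2, Notch3 and Notch4, the receptors with an unadjusted p under 0.05, are shown because they differ in their content of CpG dinucleotides, the sites of DNA methylation. They are 300 bases each, from 250 before to 50 after the transcription start, from RefSeq on build GRCm38.p6, 5′ to 3′ on the strand of the gene, with each CpG in capitals. The Notch2 window is chr3:98013288-98013587 on the plus strand, that of Notch3 is chr17:32166841-32167140 on the minus strand and that of Notch4 is chr17:34564045-34564344 on the plus strand.
Notch2: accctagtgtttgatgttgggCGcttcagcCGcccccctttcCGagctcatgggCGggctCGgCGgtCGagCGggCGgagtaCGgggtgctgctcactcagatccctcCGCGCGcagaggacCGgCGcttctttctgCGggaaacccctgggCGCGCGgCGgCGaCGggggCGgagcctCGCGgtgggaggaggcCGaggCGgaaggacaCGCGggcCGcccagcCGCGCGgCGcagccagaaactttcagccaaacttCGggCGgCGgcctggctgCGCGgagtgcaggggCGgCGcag
Notch3: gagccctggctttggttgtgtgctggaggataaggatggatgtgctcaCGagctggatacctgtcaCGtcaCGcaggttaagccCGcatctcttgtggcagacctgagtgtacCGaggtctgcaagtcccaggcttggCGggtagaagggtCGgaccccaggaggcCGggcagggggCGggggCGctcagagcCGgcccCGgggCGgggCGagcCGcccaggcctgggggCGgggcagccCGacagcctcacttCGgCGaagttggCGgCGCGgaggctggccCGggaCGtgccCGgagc
Notch4: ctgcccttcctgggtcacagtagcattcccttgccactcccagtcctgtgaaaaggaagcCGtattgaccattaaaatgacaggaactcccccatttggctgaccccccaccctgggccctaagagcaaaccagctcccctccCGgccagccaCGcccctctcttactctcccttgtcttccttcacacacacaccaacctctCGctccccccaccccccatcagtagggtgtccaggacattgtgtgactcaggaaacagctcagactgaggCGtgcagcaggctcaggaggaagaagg

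The Notch2 window held 41 CpGs, the Notch3 window 25 and the Notch4 window 5. Over all 32851 promoter windows of the table the median was 7 and the upper quartile 20. Windows were found for 7 of the 10 genes, 8 windows in all since Dll1 had a pair, and no entry was found for Hes1, Hey1 and Heyl. Notch1 had 23 CpGs, Jag1 22, Jag2 63, and the Dll1 windows 24 and 15, so Notch4 alone was under the median. The core letters of an Rbpj site, TGGGAA, read on both strands, were in none of the 8 windows, against 25.6% of all windows. The E box letters CACGTG, which are the same on both strands, were in none either, against 7.2% of all windows. That says only that these letters are not in these windows.

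No difference was detected for the 3 ligands. Jag1 encodes a Jagged ligand that mesenchymal and endothelial cells present to their neighbours. Its representative probe set read 7.39, 7.11 and 6.89 (log2) in Tdg+/- and 6.96, 6.95 and 7.05 in Tdg-/- MEFs, and the Tdg-/- range lay inside the Tdg+/- range. Its other probe set read 6.34, 6.62 and 6.58 in Tdg+/- and 6.61, 6.85 and 6.87 in Tdg-/- MEFs, with the means in the opposite order. The differences were -0.14 ± 0.14 (SE; adjusted p = 0.479) and 0.26 ± 0.12 (adjusted p = 0.279 over all probe sets). The first was -0.01 without Tdg+/- replicate 1, with a 95% interval from -0.19 to 0.17.

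Jag2, the other Jagged ligand, read 8.04, 7.93 and 7.90 (log2) in Tdg+/- and 7.89, 7.84 and 7.81 in Tdg-/- MEFs. The groups did not overlap, though the gap between them was smaller than either SD, and the difference was -0.11 ± 0.08 (SE; 95% interval -0.31 to 0.09; adjusted p = 0.398). Its dimmer probe set read 5.84, 5.64 and 5.46 in Tdg+/- and 5.67, 5.53 and 5.54 in Tdg-/- MEFs, under the olfactory median and with overlap. The difference there was -0.07 with all arrays and 0.03 with Tdg+/- replicate 1 left out. Dll1, a Delta ligand of the embryonic somites and nervous system, read 7.56, 7.55 and 7.28 in Tdg+/- and 7.40, 7.23 and 7.22 in Tdg-/- MEFs, with overlap. Its difference was -0.18 ± 0.11 (SE; 95% interval -0.45 to 0.09; adjusted p = 0.327). On the 5 arrays other than Tdg+/- replicate 1 the differences of Jag2 and Dll1 were -0.07 and -0.13, neither past the test.

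Among the targets, Hes1, the most widely expressed Hes repressor, read 9.22, 9.16 and 9.08 (log2) in Tdg+/- and 9.14, 9.02 and 8.95 in Tdg-/- MEFs. The arrays of the groups overlapped, and the difference was -0.12 ± 0.09 (SE; adjusted p = 0.401). Its 95% interval, from -0.34 to 0.10, leaves room for a fall of up to 0.34 or a rise of up to 0.10 on the log2 scale. It was -0.08 (95% interval -0.26 to 0.09) on the arrays other than Tdg+/- replicate 1.

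Hey1, a Hey repressor known from the developing heart and vessels, passed or missed the test depending on the array that stood apart. It read 7.73, 7.11 and 7.32 (log2) in Tdg+/- and 7.73, 7.71 and 7.88 in Tdg-/- MEFs. Tdg+/- replicate 1 was at the level of the Tdg-/- arrays, while the other Tdg+/- arrays were below all of them. With all 6 arrays the difference was 0.39 ± 0.17 (SE; 95% interval -0.01 to 0.78; adjusted p = 0.228). On the 5 arrays other than Tdg+/- replicate 1 it was 0.56 ± 0.09, a 1.48-fold difference with an adjusted p of 0.000401, the smallest of the 10 genes there. With any other array left out the difference was between 0.25 and 0.42, with adjusted p-values from 0.209 to 0.548. Tdg+/- replicate 1 was 0.52 above the mean of the other Tdg+/- arrays for Hey1, whereas the median of all genes with mean levels of 6.55 to 7.70 was 0.14 above.

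Heyl, a Hey family member known from vascular smooth muscle, had 3 probe sets. The representative one read 7.27, 7.02 and 6.93 (log2) in Tdg+/- and 7.08, 6.88 and 6.74 in Tdg-/- MEFs, with overlap. The others read 7.53, 7.12 and 6.77 against 6.81, 6.78 and 6.85, and 7.32, 6.46 and 6.32 against 6.20, 6.21 and 6.29. In all of them Tdg+/- replicate 1 was the highest array. The differences were -0.18, -0.32 and -0.47 with all arrays and -0.08, -0.12 and -0.16 without Tdg+/- replicate 1, and none passed the test in either case.

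**Figure D2:**
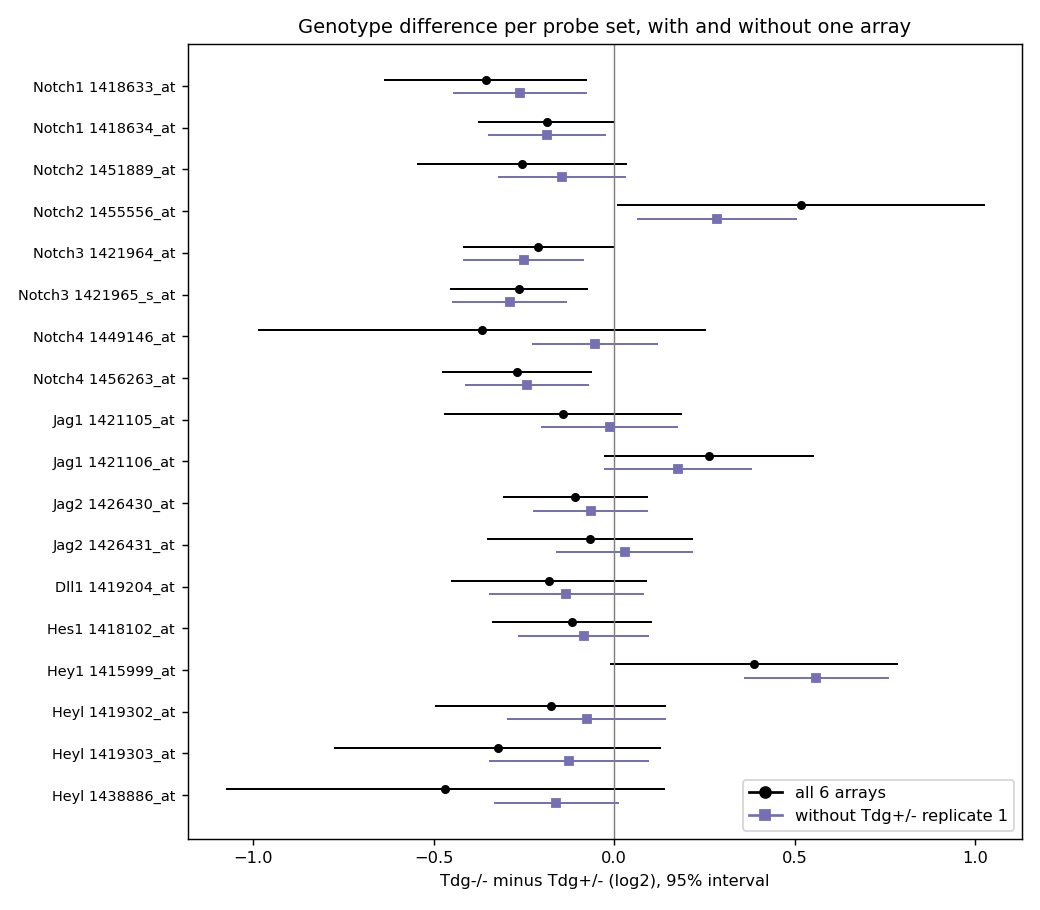
Difference between the genotypes (Tdg-/- minus Tdg+/-, log2, x axis) for each of the 18 probe sets, with its 95% interval from the fit over all probe sets. Black circles use all 6 arrays and purple squares leave out Tdg+/- replicate 1; without it the intervals are narrower, Hey1 moves from 0.39 to 0.56, and the dimmer Notch4 probe set moves from -0.37 to -0.05.

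Over the 18 probe sets, 15 had differences below 0 and 3 above, and in 9 the arrays of the groups did not overlap, 8 of them with Tdg-/- lower; over all probe sets 37.2% did not overlap. Of the 7 genes with more than 1 probe set, 5 had a single direction in all of theirs, and Notch2 and Jag1 had both; with Tdg+/- replicate 1 left out Jag2 had both as well. By gene, 5 of 10 did not overlap, 4 with Tdg-/- lower and 1 higher, where 39.5% of all genes did not overlap, 16.8% lower and 22.6% higher. The SD was larger among the Tdg+/- than among the Tdg-/- arrays in 16 of the 18 probe sets. The position of Tdg+/- replicate 1 went with signal level over all genes, with a median of 0.24 (log2) relative to the rest of its group for genes at mean levels up to 6.55, 0.14 from there to 7.70, -0.23 from there to 9.04 and -0.25 above that. These level ranges, each with the same number of genes, held 1, 5, 3 and 1 of the 10 Notch genes. Its part in the differences of the dimmer genes was examined only by leaving the array out, by a loess correction of it and by quantile normalization. With the loess correction and quantile normalization Notch4 went from -0.27 to -0.20 and -0.16. Notch3 went from -0.26 to -0.25 and -0.19, and Dll1 from -0.18 to -0.20 and -0.17.

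**Figure D3:**
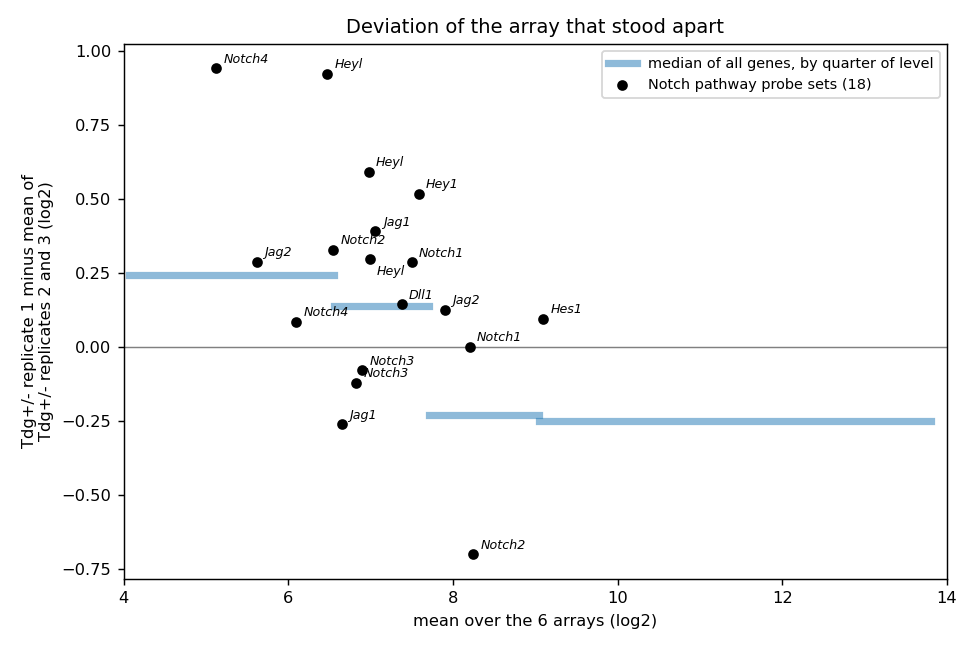
Difference of Tdg+/- replicate 1 from the mean of the other Tdg+/- arrays (log2, y axis) against the mean over the 6 arrays (log2, x axis). Black points are the 18 Notch pathway probe sets and blue bars the median of all genes in each of 4 ranges of signal level, 0.24, 0.14, -0.23 and -0.25 from the lowest to the highest. The dimmer Notch4 probe set and a Heyl probe set lie more than 0.9 above 0, and the brighter Notch2 probe set lies at -0.70.

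The rest of the pathway was read from a list of 64 further genes, of which 55 were measured. In Tdg-/- MEFs 3 of them fell, 0 rose and 52 were not past the test, a share of 5.45% lower against 1.32% of all genes. The list was chosen with earlier results of these data known, so its share is no independent test against that of all genes. The absence of higher genes depended on the processing: 3 rose beside the 3 that fell with quantile normalization and with a loess correction of Tdg+/- replicate 1 (Ctbp2, Furin and Psenen), and with genes under the median level left out (Ctbp2, Furin and Snw1). Beside 3 that fell, 1 rose with the mean of a gene's probe sets and 1 with Tdg+/- replicate 3 left out. Results without Tdg+/- replicate 1 are given below. The median difference was 0.01 (log2), against -0.02 over all genes. The 3 that fell were all among the 7 measured further ligands and ligand-like proteins. Dlk1, a membrane protein related to Delta but without the Delta domain that binds Notch, read 10.72, 10.78 and 11.02 (log2) in Tdg+/- and 9.44, 9.29 and 9.27 in Tdg-/- MEFs, which is 2.85-fold lower (adjusted p = 0.00127). Mfap5, a microfibril protein reported to bind Notch and Jagged proteins, read 8.16, 8.65 and 8.59 in Tdg+/- and 7.06, 7.27 and 7.02 in Tdg-/- MEFs. It was 2.55-fold lower (adjusted p = 0.00635). Its second probe set was 1.37-fold lower and did not pass (adjusted p = 0.0835 over all probe sets).

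Mfap2, the companion microfibril protein, read 9.97, 10.05 and 9.97 (log2) in Tdg+/- and 9.53, 9.47 and 9.37 in Tdg-/- MEFs, 1.45-fold lower (adjusted p = 0.0241). No Tdg-/- array of these 3 genes reached the Tdg+/- range. Mfap2 did not pass without Tdg+/- replicate 2 or any 1 of the Tdg-/- arrays (adjusted p from 0.107 to 0.163), nor with the replicate number as a block (0.0688), and Mfap5 did not pass without Tdg-/- replicate 1 (0.0542) or 3 (0.0599). Dll4, a Delta ligand of endothelium, had a difference of -0.31 ± 0.18 (log2, SE, adjusted p = 0.304). It was -0.12 ± 0.09 (adjusted p = 0.352) without Tdg+/- replicate 1.

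On the 6 arrays as deposited, no other group of the pathway had a member past the test. Rbpj, the DNA-binding partner of the receptors, differed by 0.08 ± 0.09 (log2, SE, adjusted p = 0.520), and Maml1, a Mastermind co-activator, by -0.06 ± 0.13 (adjusted p = 0.767). On the arrays other than Tdg+/- replicate 1 they differed by 0.03 (adjusted p = 0.809) and -0.18 (adjusted p = 0.131). The 18 genes of the nuclear complex had a median of 0.11 and the 7 genes of receptor cleavage 0.33, the highest group median. With Tdg+/- replicate 1 left out these medians were 0.09 and 0.21. Adam10 read 8.84, 9.25 and 9.57 in Tdg+/- and 9.63, 9.84 and 9.80 in Tdg-/- MEFs, a difference of 0.54 ± 0.18 (SE) that did not pass (adjusted p = 0.162). The median was -0.11 for the 6 further Hes and Hey factors, -0.04 for the 5 glycosyltransferases that modify the receptors and 0.00 (0.003) for the 12 genes of trafficking and turnover.

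Without Tdg+/- replicate 1, 22% of all genes passed, 14.1% higher and 7.87% lower. Of the 55 further genes 15 passed on those arrays, 9 higher and 6 lower. The higher ones were Dner, Hes6, Snw1, Kat2b, Ctbp2, Hdac1, Adam10, Furin and Psenen, and the lower ones Dlk1, Mfap2, Mfap5, Maml2, Mfng and Dtx1. Adam10, Furin and Psenen, which encode a protease of the receptors, a convertase that processes them and a subunit of gamma-secretase, then differed by 0.35, 0.40 and 0.49 (log2), with adjusted p-values of 0.0214, 0.00228 and 0.00102. Hes6, an inhibitor of Hes1 in the nervous system, differed by 0.70 (adjusted p = 7.21e-05) on those arrays and by 0.33 (adjusted p = 0.464) on all 6.

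**Figure D4:**
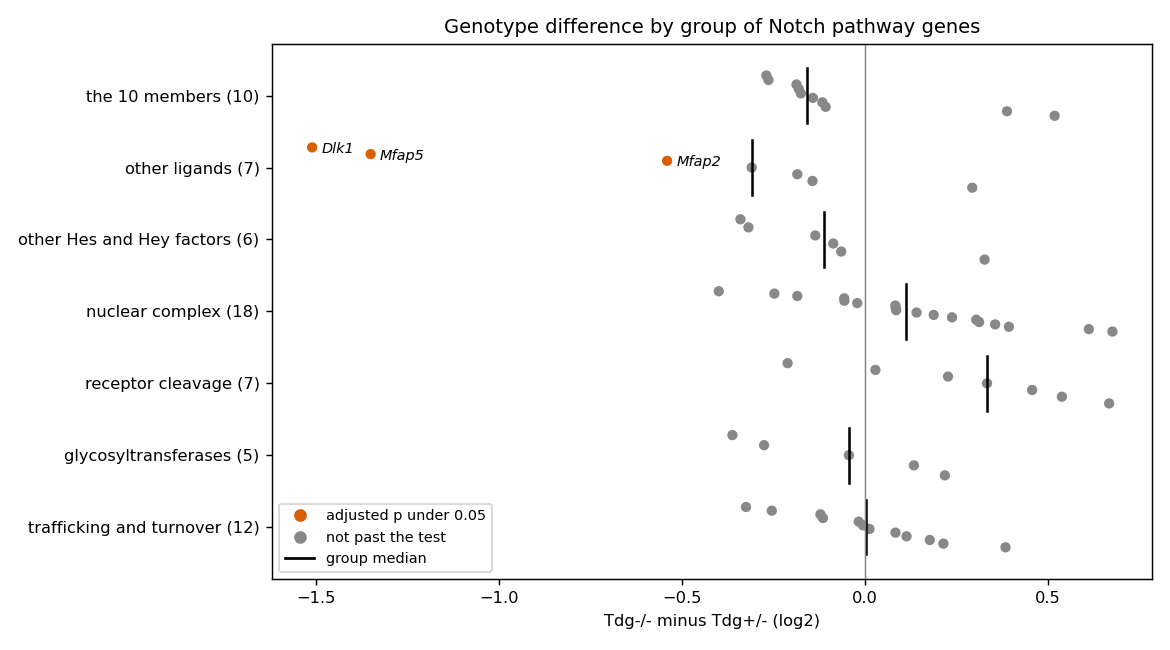
Difference between the genotypes (Tdg-/- minus Tdg+/-, log2, x axis) of the 10 Notch genes and of the 55 further pathway genes by group (y axis, number of genes in parentheses). Each point is a gene, orange where the adjusted p was under 0.05, and black bars are group medians; Dlk1, Mfap5 and Mfap2 are the genes past the test.

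The labelled cell type was checked against its markers. Of 13 fibroblast markers, 12 were above the olfactory 90th percentile in Tdg+/- and 11 in Tdg-/- MEFs. In Tdg-/- MEFs 7 of them fell. Over all genes 1.32% fell, the share to set beside this count and those of the next lists. The summed level of the 13 (log2 of the sum of unlogged values) was 15.56 to 15.62 in Tdg+/- and 15.25 to 15.34 in Tdg-/- MEFs. For smooth muscle and pericytes, where Notch3 and Heyl are known, 6 of 8 markers were above that percentile in both, and 2 fell. The summed level of the 8 overlapped, at 14.25 to 14.43 in Tdg+/- and 14.28 to 14.38 in Tdg-/- MEFs. For endothelium, where Notch4 and Dll4 are known, 3 of 10 markers were above that percentile in Tdg+/- and 2 in Tdg-/- MEFs. Their summed level was 10.51 to 10.65 and 10.30 to 10.36, and 1 marker, Kdr, fell. The defining markers Cdh5 and Pecam1 were under the olfactory median in both. Kdr (8.95 in Tdg+/- and 8.37 in Tdg-/- MEFs) and Flt1 (8.69 and 8.75) were above every olfactory probe set in both. Of 7 neural progenitor markers, Sox2 and Nes rose, where 2.52% of all genes did. Sox1, Pax6, Msi1, Olig2 and Fabp7 had differences below 0 that did not pass, and the median of the list was -0.08 (log2). For each of these genes Tdg+/- replicate 1 was the highest array of its group. Olig2 read 4.70, 4.39 and 4.37 in Tdg+/- and 4.40, 4.40 and 4.43 in Tdg-/- MEFs. Fabp7 read 4.99, 4.74 and 4.58 against 4.74, 4.64 and 4.90. The direction of both, and of the list median (Olig2), therefore rests on that array, and no marker difference is given without it. The summed level of the 7 was 10.45 to 10.74 in Tdg+/- and 11.25 to 11.44 in Tdg-/- MEFs. Nes, the brightest of the list (9.88 in Tdg+/- and 10.81 in Tdg-/- MEFs), weighs most in that sum. Sox2 went from 4.83 to 8.58, so the sum does not describe the list as a whole. The part of these cell types in the Notch gene values was not tested.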

How the data were processed

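Total RNA (13 µg per sample, per the labels' protocols) of 6 MEF samples was labelled and hybridised to Affymetrix arrays. The authors deposited log2 expression values per probe set. MAS5, RMA, affy and limma appear in the submitters' processing notes, with no role stated for any. No detection calls were used, so genes with signal near the unspecific level were kept. Differences of dim genes may be understated. They also moved with 1 array: the median difference of genes at mean levels up to 6.55 was -0.17 with all arrays and -0.08 without Tdg+/- replicate 1. Precision is limited by the number of arrays. No column of MEF values was left unused.

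Probe sets were named by the platform's annotation, with symbols brought up to date by gene identifier in RefSeq (GRCm38.p6). Of 22690 probe sets, 20393 had 1 gene symbol, 691 several and 1606 none; 20364 matched. Those with several symbols were not used, apart from Tdg. Each gene was represented by its probe set with the highest mean. Groups were compared with limma 3.58.1 (lmFit and eBayes, R 4.3.3) over 12394 genes, with Benjamini-Hochberg adjustment and a threshold of 0.05; single probe sets were taken from a fit over all 22690. All 10 Notch genes were named, with Tdg, the other pathway genes past the test, Rbpj, Maml1, Adam10 and Dll4, and the 3 genes closest in profile to the Notch gene with the smallest adjusted p; another gene of that rule is not reported here. Genes named without Tdg+/- replicate 1, and the CpG counts, were chosen after values were seen. The members and lists were chosen with earlier results of these data known. Same-numbered arrays did not deviate together in every pair (correlations of deviations 0.330, 0.00757 and 0.366), so the number was not used as a block. The procedure was also run on simulated data with the same spread in both groups and no array apart. That run therefore says nothing about the influence of Tdg+/- replicate 1.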

Additional observations from a re-analysis of the deposited data

How the results depend on the processing

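No Notch gene passed with quantile normalization, a loess correction of Tdg+/- replicate 1, the fit over all single-gene probe sets, the mean of a gene's probe sets, genes under the median level left out (4 Notch genes were then tested), a trended and robust eBayes, a replicate block or a 2-fold limit. Across arrays left out in turn the Notch genes called ranged from 0 to 2 higher and from 0 to 2 lower; the calls came without Tdg+/- replicate 1. Jag1 reversed to 0.0602 with the mean of its probe sets, and no other Notch gene changed sign under these alternatives. The further pathway genes called were 6 (3 higher and 3 lower) with quantile normalization, with the loess correction and with genes under the median level left out. They were 4 with the mean of a gene's probe sets, 2 with the replicate block or the 2-fold limit, and 1 to 15 across arrays left out. Over all genes the count of 475 became 785 with the loess correction, 237 with the replicate block, 147 with the 2-fold limit and 95 to 2722 across arrays left out. The share of rises among called genes was 65.7%, and 55.3% with quantile normalization. The median difference of all genes was -0.02, and 0.14 with genes under the median level left out. Signal near the level of olfactory receptor probe sets limits what Notch3, Notch4 and the dimmer probe sets can show.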
